A study of Mus musculus with 24 samples.

Results

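The genes described are 38 enzymes and carriers of mitochondrial fuel oxidation, 19 that bring pyruvate into the tricarboxylic acid (TCA) cycle or run the cycle and 19 that activate, import and oxidize fatty acids. They were taken as a fixed list of gene symbols, and all 38 were found among the 37991 Ensembl genes of the count table. Acetyl-CoA enters the TCA cycle from pyruvate through the pyruvate dehydrogenase complex and from fatty acids through beta-oxidation, and both routes feed electrons to the respiratory chain. In the mammary gland the epithelium lies in a fat pad of white adipocytes, and brown adipocytes and skeletal muscle, which can border the gland, are tissues with very high levels of these enzymes.

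RNA was sequenced from mammary tumors of PyMT females and normal mammary glands of FVB females at weeks 6, 8, 10 and 12 of age. There were 3 PyMT and 3 FVB mice at each week, 24 samples in 8 groups. PyMT mice were F1 females heterozygous for a transgene in which the mouse mammary tumor virus (MMTV) promoter drives the polyoma virus middle T antigen in mammary epithelium. They were bred from transgenic males of an FVB/N line and FVB females. FVB mice were age-matched FVB females without the transgene. Each sample came from a separate mouse. In PyMT mice week 6 stood for hyperplasia, week 8 for adenoma or mammary intraepithelial neoplasia, week 10 for carcinoma at an early and week 12 at a late stage. The question was how the genes differed between PyMT and FVB tissue along these stages. Levels are given as normalized counts (counts divided by DESeq2's size factor of the library), and differences as log2 fold changes, PyMT minus FVB, with their standard error (SE) from edgeR's quasi-likelihood test after TMM scaling. Adjusted p-values are Benjamini-Hochberg values over the 14918 genes with a CPM value (counts scaled to the library total) of at least 1 in at least 12 samples. All 38 members passed this filter. A differentially expressed gene (DEG) differed by more than 2 times at a single week with its adjusted p under 0.05. A gene was called changed over all weeks if the mean of the 4 weekly differences, fitted on the 24 samples together, had an adjusted p under 0.05.

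Total counts per library ran from 6969375 to 13516601, and the count of a member in a library from 51 to 20943. Intervals that rest on counts cover counting error only, and the tests below measure the spread between mice. The labelled tissue carried its markers: 6 luminal epithelial markers summed to 474 to 2129 CPM in the FVB libraries and 2267 to 4235 CPM in the PyMT libraries. Of the 8 white adipocyte markers none was at 0 in any library, and their sum was 5524 to 15170 CPM in FVB and 115 to 1778 CPM in PyMT. In whole tissue, fewer cells of a type and less RNA per cell cannot be told apart, so every value below is a level in the tissue and not in the tumor cell.

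Several libraries stood apart. The 6 brown adipocyte markers, among them Ucp1, summed to 1131 CPM in FVB week 6 replicate 1, 1838 CPM in FVB week 8 replicate 1, 1420 CPM in FVB week 10 replicate 3, 1103 CPM in FVB week 12 replicate 1 and 700.5 CPM in PyMT week 6 replicate 2. The other 8 FVB libraries had sums of 26.9 to 369 CPM and the other 11 PyMT libraries 12.6 to 286.8 CPM. For 31 of the 38 members the 4 FVB libraries named here were the 4 highest of the 12, and for 33 members PyMT week 6 replicate 2 was the highest of the 12 PyMT libraries. How many of all genes tested had these patterns was not computed. The 10 skeletal muscle markers were also high in 3 of these FVB libraries, at 73680 CPM in week 6 replicate 1, 73010 CPM in week 10 replicate 3 and 43290 CPM in week 12 replicate 1. In PyMT week 6 replicate 2 they summed to 2486 CPM. Outside these 5 libraries the highest muscle sums were 16830 CPM in FVB week 6 replicate 2, 4288 CPM in PyMT week 6 replicate 1 and 3851 CPM in PyMT week 10 replicate 3. In FVB week 8 replicate 1, the library with the highest median level of the members, the muscle sum was 78.1 CPM. Of the defining brown adipocyte markers, Ucp1 was above 0 in every library and Elovl3 was at 0 in 7, 6 of them PyMT. The share of genes of 10 to 30 CPM that had no count was highest in FVB week 10 replicate 3 (4.396%), PyMT week 8 replicate 2 (2.869%), FVB week 8 replicate 1 (1.922%) and PyMT week 6 replicate 2 (1.658%). Of these, 3 were among the 5 libraries richest in brown adipocyte markers. The averaged differences were also fitted without FVB week 10 replicate 3 and PyMT week 8 replicate 2, and the count of members called in that fit is not given here. The part of this share in the weekly counts was not tested. Because of the brown adipocyte markers, the averaged differences were also fitted without the 5 libraries richest in them, called brown-rich here. They were fitted as well with the mean log2 level of the brown adipocyte markers as a covariate. Both fits were added after the data had been seen, and the covariate fit assumes the same slope in both genotypes. Of the 6 markers, Cox7a1 and Cox8b themselves encode subunits of the respiratory chain. The covariate is thus not free of genes of fuel oxidation, and no fit without them was run. Muscle markers were high in 3 of the 4 brown-rich FVB libraries, and whether the 6 markers also followed muscle RNA was not tested.

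**Figure D1:**
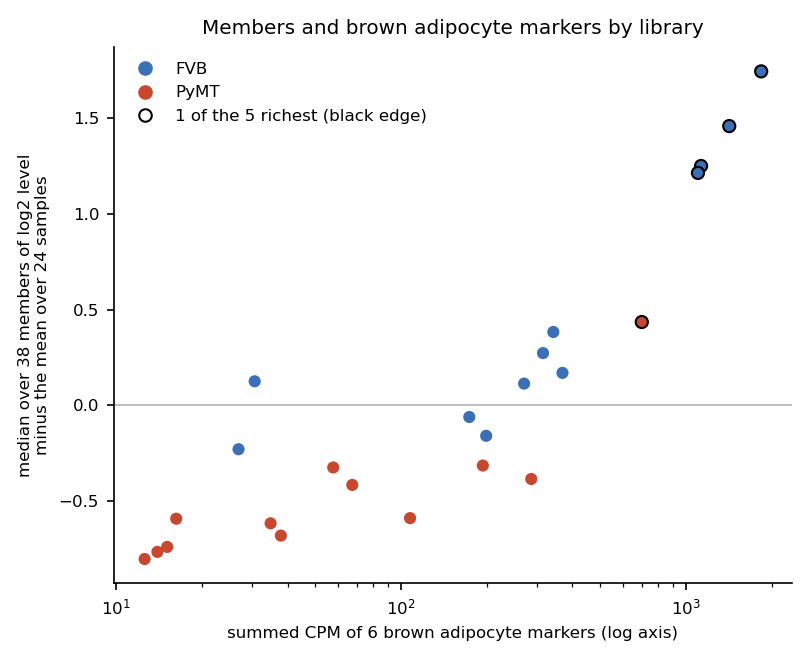
Each point is 1 of the 24 libraries, with the summed CPM of 6 brown adipocyte markers on a log axis and, on the vertical axis, the median over the 38 members of the log2 normalized count minus that gene's mean over all libraries. The 5 libraries richest in the markers (black edges, 700.5 to 1838 CPM) hold the 5 highest medians, 0.435 to 1.74, while the other PyMT libraries lie between -0.80 and -0.31.

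Within groups, many members varied with the brown adipocyte markers. In a fit of genotype, week and the mean log2 levels of the brown adipocyte and of the muscle markers, 19 members had a positive slope on the brown adipocyte markers with an adjusted p under 0.05 (edgeR quasi-likelihood test), where 0.543% of all genes tested did. The slope was above 0 in 36 members, and the largest was that of Sucla2 (0.41 ± 0.06 SE log2 units per log2 unit, adjusted p = 0.00294), the ADP-forming beta subunit of succinyl-CoA ligase. Next came Acadvl with 0.39 ± 0.06 and Hadhb with 0.38 ± 0.06. Cpt1a and Acox3 had slopes below 0, -0.18 ± 0.06 and -0.09 ± 0.04, with adjusted p of 0.290 and 0.535. On the muscle markers no member had a slope with an adjusted p under 0.05, while 1.07% of all genes had a positive one. The muscle slope was above 0 in 33 members. How many of all genes tested had either slope above 0 was not computed.

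The members' differences were below 0 in 37, 37, 38 and 37 of the 38 at weeks 6, 8, 10 and 12. Of the 14918 genes tested, 8005, 7722, 7397 and 7465 were below 0 at these weeks. No member was a DEG in the upward direction at any week. At week 6, 3 members were DEGs, against 6.46% of all genes tested that were lower. At week 8 there were 4 (6.37% of all genes), at week 10 there were 21 (9.09%) and at week 12 there were 21 (13%). Of all genes tested, 3.58%, 3.57%, 4.83% and 7.75% were DEGs in the upward direction at these weeks. The median log2 fold change of the 38 members was -0.69, -1.29, -1.26 and -1.10 at weeks 6, 8, 10 and 12, while that of all genes tested lay between -0.08 and 0.01. Pcx and Acsl1 were DEGs at all 4 weeks, Idh1, Cpt2 and Decr1 at 3, another 9 members at 2, 14 at 1 and 10 at none. The count at a week depended on single mice. At week 10 it was 7 without PyMT replicate 1 and 9 without either other PyMT mouse. At week 12 it was 8 without FVB replicate 1, the library rich in brown adipocyte markers, and 12, 10 and 9 without PyMT replicates 1, 2 and 3. The corresponding counts for week 6 were 6 without PyMT replicate 2 and 5 without FVB replicate 3, and for week 8 they were 2, 1 and 0 without PyMT replicates 1, 2 and 3 and 1 without FVB replicate 2. Without the brown-rich libraries of the week, the counts were 6, 4, 14 and 8. The shares of all genes called in these fits with fewer mice are not given here, so the counts cannot be set against them.

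**Figure D2:**
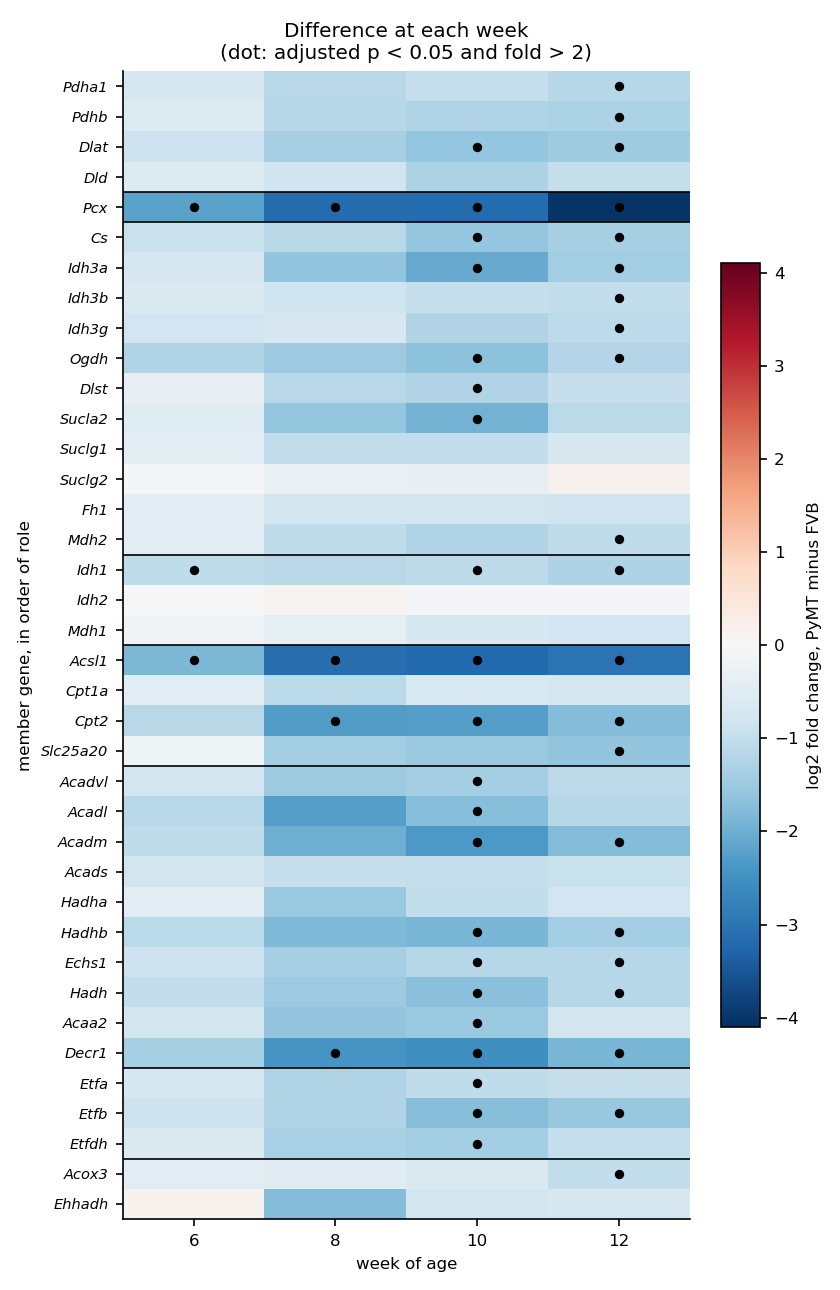
Rows are the 38 members in order of role, columns are weeks of age, and color is the log2 fold change of 3 PyMT against 3 FVB mice (blue, lower in PyMT); a dot marks a DEG. Pcx and Acsl1 carry a dot in every column, Idh2 and Suclg2 in none, and most dots lie at weeks 10 and 12, with 21 each.

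Averaged over the 4 weeks, 36 of the 38 members were lower in PyMT and none was higher, where 27.4% of all genes tested were called lower and 23.6% higher. The median was -1.12 for the members, -0.95 for the 19 genes of pyruvate entry and the TCA cycle and -1.20 for the 19 genes of fatty acid oxidation, and -0.03 for all genes tested. Without the 5 brown-rich libraries 33 members were still called lower (24.0% of all genes), with a median of -0.60. With the brown adipocyte markers as a covariate 14 were (20.9% of all genes), with a median of -0.37, 4 of them from pyruvate entry and the TCA cycle and 10 from fatty acid oxidation. In both fits and in each of the other alternatives run, 35 in all, 13 members stayed called lower: Pcx, Cs, Ogdh, Idh1, Acsl1, Cpt2, Acadl, Acadm, Acads, Hadh, Decr1, Etfb and Acox3.

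Of the 4 members that are subunits of the pyruvate dehydrogenase complex, which converts pyruvate to acetyl-CoA, 3 were DEGs at week 12. Of them, 1 was also a DEG at week 10. Dlat, the acetyltransferase core, had FVB levels of 560.5 to 3698 normalized counts with a median of 1362, and PyMT levels of 568 to 1330 with a median of 666. The 3 PyMT mice lay below the 3 FVB mice at weeks 10 and 12 and overlapped with them before, and the difference averaged over weeks was -1.32 ± 0.28 SE (adjusted p = 0.000407). Pdha1 and Pdhb, the E1 subunits, gave averaged differences of -1.01 ± 0.26 and -1.08 ± 0.28. Dld, the E3 dehydrogenase shared with the oxoglutarate complex, changed least of the 4, by -0.92 ± 0.25, and was a DEG at no week. Without the 5 brown-rich libraries the 4 values were -0.64 ± 0.13 for Dlat, -0.38 ± 0.12 for Pdha1, -0.46 ± 0.17 for Pdhb and -0.31 ± 0.09 for Dld, and with the covariate none of the 4 was called (adjusted p from 0.153 to 0.602).

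Pcx gave the largest averaged difference of all members. It encodes pyruvate carboxylase, which makes oxaloacetate from pyruvate and supplies the citrate that adipocytes export for fatty acid synthesis, and it lies on mm9 at chr19:4510472-4621752, plus strand. At week 6 its levels were 12833, 8915 and 6378 normalized counts in FVB and 1243, 3123 and 1907 in PyMT. At week 8 they were 14586, 7685 and 2824 against 1621, 580.4 and 605. At week 10 they were 7314, 3124 and 12471 against 746, 961 and 776. At week 12 they were 24497, 8078 and 18575 against 1203, 791 and 1049. The groups did not overlap at any week, though the highest PyMT mouse, week 6 replicate 2, reached above the lowest FVB mouse of week 8. The log2 fold changes were -2.18 ± 0.39, -3.15 ± 0.67, -3.15 ± 0.47 and -4.02 ± 0.42 (SE) with adjusted p of 0.0109, 0.0241, 0.00377 and 0.000464 by edgeR's quasi-likelihood test. Over all weeks the difference was -3.14 ± 0.30, -2.75 ± 0.26 without the 5 brown-rich libraries and -2.46 ± 0.25 with the covariate, called in all 3 fits. Pcx overlaps Lrfn4 on the opposite strand, which had 5027 counts over all libraries against 130218 for Pcx.

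Of the 11 enzymes of the TCA cycle proper, 10 were lower in PyMT over all weeks. Idh3a, the catalytic subunit of the NAD-dependent isocitrate dehydrogenase, gave the largest difference of them. It ran from 718 to 4423 normalized counts in FVB (median 1127) and from 367 to 1546 in PyMT (median 613), and the averaged log2 fold change was -1.46 ± 0.32 (adjusted p = 0.000609), with DEG calls at weeks 10 (-2.06 ± 0.46) and 12 (-1.41 ± 0.38). Its partner subunits Idh3b and Idh3g gave -0.85 ± 0.21 and -0.95 ± 0.23. With the covariate the 3 subunits were at -0.43 ± 0.24, -0.16 ± 0.16 and -0.33 ± 0.22 and none was called. Reads of Idh3b can also come from Nop56 on the opposite strand, which had 14780 counts against 28481 for Idh3b, and whether the counting used strand is not given in the sources used here.

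Cs and Ogdh stayed lower in every fit. Cs, citrate synthase, which joins acetyl-CoA to oxaloacetate in the first step of the cycle, ran from 2238 to 9324 normalized counts in FVB (median 4034) and from 1468 to 3195 in PyMT (median 2017). The 4 highest FVB values, 7963 to 9324, were the 4 brown-rich libraries, and the other 8 FVB libraries lay between 2238 and 4323. Its averaged difference of -1.26 ± 0.23 (adjusted p = 0.000116) became -0.65 ± 0.11 without the 5 libraries and -0.52 ± 0.18 (adjusted p = 0.0291) with the covariate. Ogdh, the E1 enzyme of the oxoglutarate dehydrogenase complex, ran from 2911 to 11930.0 in FVB (median 4327) and from 1631 to 3988 in PyMT (median 2024). Here the 8 FVB libraries that were not brown-rich, at 2911 to 4814, lay above the other 11 PyMT libraries at 1631 to 2677, without overlap. Brown adipocyte marker RNA was not matched between them, with sums of 26.9 to 369 CPM in these FVB and 12.6 to 286.8 CPM in these PyMT libraries. The averaged difference was -1.41 ± 0.26 (adjusted p = 0.000129), -0.80 ± 0.10 without the 5 libraries and -0.58 ± 0.19 (adjusted p = 0.019) with the covariate.

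Of the other steps of the cycle, all but Suclg2 were lower over all weeks. Dlst, the succinyltransferase partner of Ogdh, gave -0.93 ± 0.24, Sucla2 -1.30 ± 0.34, Fh1, fumarase, -0.71 ± 0.20, and Mdh2, mitochondrial malate dehydrogenase, -0.95 ± 0.24. Without the 5 brown-rich libraries these 4 were at -0.48 ± 0.09, -0.60 ± 0.16, -0.27 ± 0.10 and -0.34 ± 0.11, all still called. With the covariate they were at -0.21 ± 0.20, -0.13 ± 0.21, -0.11 ± 0.17 and -0.25 ± 0.22, and none was called (adjusted p from 0.403 to 0.68). Suclg1, the alpha subunit of succinyl-CoA ligase, gave -0.79 ± 0.25 (adjusted p = 0.0125), and -0.17 ± 0.09 (adjusted p = 0.114) without the 5 brown-rich libraries. Suclg2, the GDP-forming beta subunit of the same ligase, had levels of 450 to 1318 normalized counts in FVB (median 579) and 473 to 734 in PyMT (median 594). Its groups overlapped at all 4 weeks and its averaged difference was -0.13 ± 0.15 (adjusted p = 0.5002), with a positive sign of 0.22 ± 0.10 (adjusted p = 0.0931) without the 5 libraries. The pair of beta subunits thus gave different values within the same ligase, though the difference between them was not tested.

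The NADP-dependent and cytosolic enzymes are related to the cycle but lie partly outside it. Idh1, the cytosolic NADP-dependent isocitrate dehydrogenase, which makes NADPH for lipid synthesis, ran from 1379 to 3377 normalized counts in FVB (median 1842) and from 602 to 1022 in PyMT (median 891). All 12 PyMT mice lay below all 12 FVB mice, as was so for 3 members, Idh1, Acsl1 and Acox3, and for 7.22% of all genes tested. The log2 fold change was -1.05 ± 0.25 at week 6, -1.15 ± 0.35 at week 8 (not called, adjusted p = 0.078), -1.08 ± 0.18 at week 10 and -1.27 ± 0.18 at week 12. Over all weeks it was -1.15 ± 0.14 (adjusted p = 5.13e-07), and it moved little without the 5 libraries (-0.89 ± 0.09) or with the covariate (-0.98 ± 0.17).

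Idh2, the mitochondrial NADP-dependent enzyme, was not called. At week 6 it had 1245, 1202 and 929 normalized counts in FVB and 955, 1418 and 1009.8 in PyMT. At week 12 it had 1260.5, 698 and 771 in FVB and 871, 743 and 965 in PyMT. The groups overlapped at every week, and the averaged difference was -0.01 ± 0.11 (adjusted p = 0.968). Its sign turned with the scaling: scaled by library size alone, a choice that shifted the all-gene median from -0.03 to 0.26, Idh2 stood at 0.31 (adjusted p = 0.0159). Mdh1, cytosolic malate dehydrogenase of the malate-aspartate shuttle, gave -0.50 ± 0.18 (adjusted p = 0.0227), and -0.11 ± 0.10 (adjusted p = 0.362) without the 5 libraries. Its counts may hold reads of Wdpcp on the opposite strand, which had 2703 counts against 48361 for Mdh1.

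**Figure D3:**
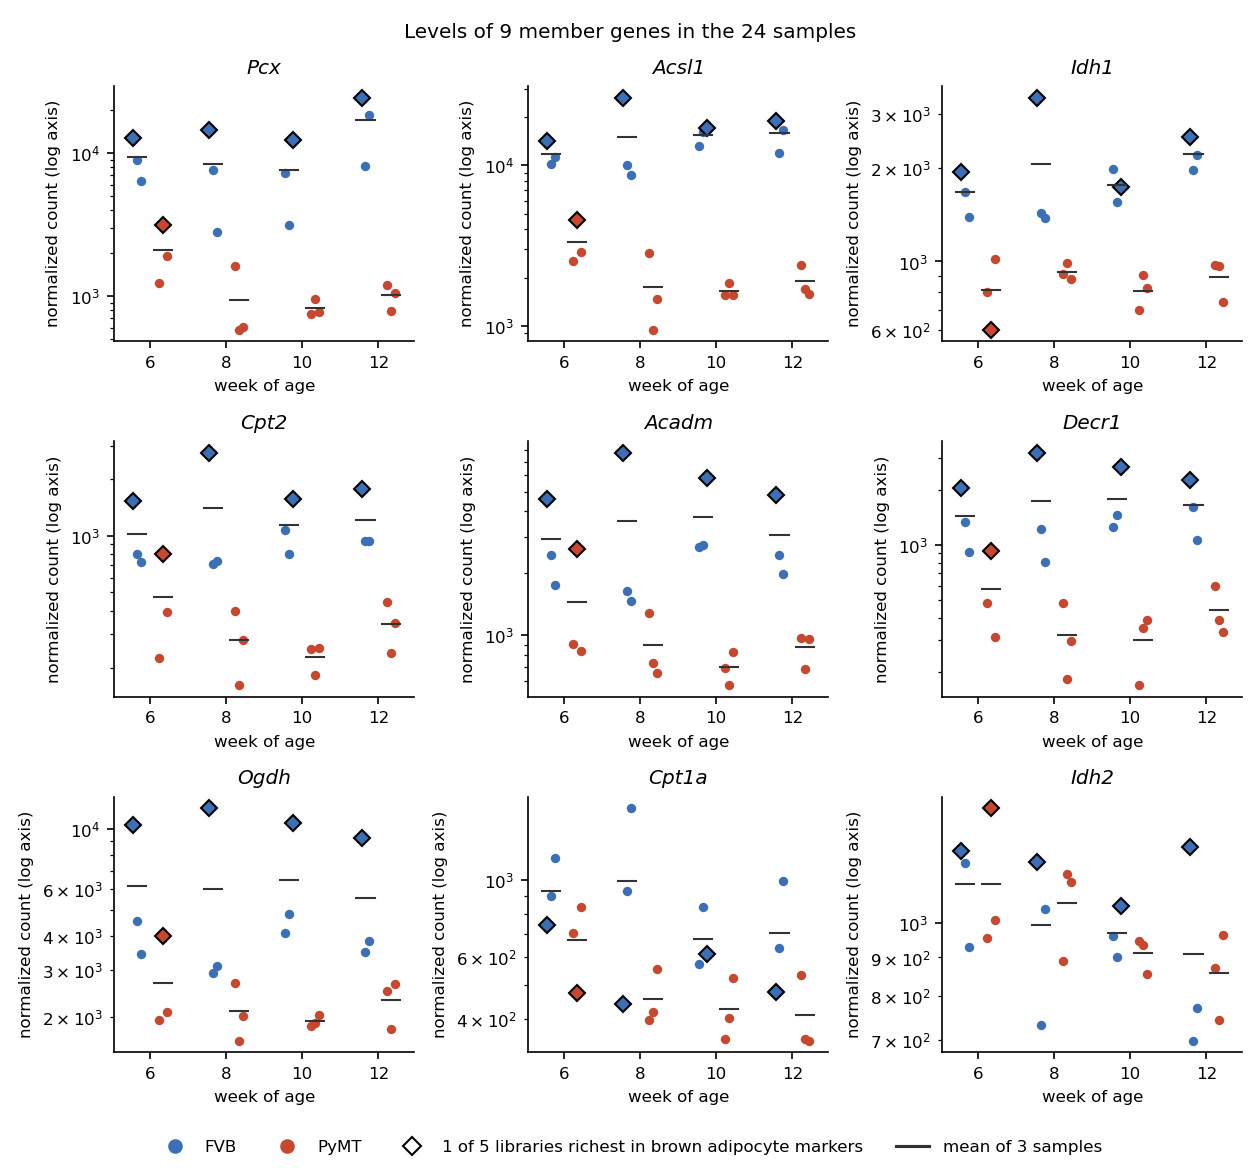
Normalized counts (log axis) of 9 members by week of age, with 1 point per mouse, FVB in blue and PyMT in red, a bar at the mean of each group of 3 and diamonds for the 5 libraries richest in brown adipocyte markers. Acsl1 and Idh1 separate all 12 PyMT from all 12 FVB mice, the diamonds lie on top for Ogdh, Acadm, Decr1 and Cpt2 within their groups, and Idh2 overlaps at every week.

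All 4 members that activate long-chain fatty acids and carry them into the mitochondrion were lower in PyMT over all weeks. Acsl1, the main long-chain acyl-CoA synthetase of adipocytes, lies on mm9 at chr8:47556395-47621405, plus strand. Its normalized counts at week 6 were 14138, 10133 and 11245 in FVB and 2551.5, 4568 and 2904 in PyMT. At week 8 they were 26421, 10002 and 8747 against 2842, 947 and 1473. At week 10 they were 13229, 16026 and 17198 against 1561, 1857 and 1553. At week 12 they were 18912, 11967 and 16719 against 2409, 1699 and 1593. Every PyMT mouse lay below every FVB mouse, the nearest pair being 4568 in PyMT week 6 replicate 2 and 8747 in FVB week 8 replicate 3. The log2 fold changes were -1.84 ± 0.28, -3.08 ± 0.58, -3.17 ± 0.21 and -3.02 ± 0.26 with adjusted p of 0.00545, 0.0165, 0.00015 and 0.000296 (edgeR quasi-likelihood test). Over all weeks the difference was -2.79 ± 0.20 (adjusted p = 4.13e-10), -2.57 ± 0.17 without the 5 brown-rich libraries and -2.36 ± 0.17 with the covariate.

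Cpt2, the inner membrane carnitine palmitoyltransferase, which hands acyl groups back to CoA in the matrix, ran from 704 to 2738 normalized counts in FVB (median 937) and from 161 to 802 in PyMT (median 267). One PyMT mouse, week 6 replicate 2 at 802, reached into the FVB range, and the other 11, at 161 to 443, lay below all FVB mice. It was a DEG at weeks 8 (-2.29 ± 0.60, adjusted p = 0.0486), 10 (-2.26 ± 0.30, adjusted p = 0.00217) and 12 (-1.78 ± 0.32, adjusted p = 0.00476). The averaged difference of -1.88 ± 0.26 became -1.49 ± 0.17 without the 5 libraries and -1.15 ± 0.17 with the covariate, with adjusted p of 3.76e-06, 1.35e-06 and 2.01e-05. Slc25a20, the carnitine-acylcarnitine carrier, gave -1.20 ± 0.29 (adjusted p = 0.00161) and was a DEG at week 12, and with the covariate it was at -0.30 ± 0.24 (adjusted p = 0.358).

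Cpt1a, the outer membrane palmitoyltransferase that controls the rate of entry, differed from its neighbors in where it was high. In FVB it was 741, 897 and 1152 normalized counts at week 6, 442, 927 and 1598 at week 8, 576, 836 and 615 at week 10, and 478, 639 and 992 at week 12. The lowest FVB values of weeks 6, 8 and 12 were those of the brown-rich libraries, and in PyMT the range was 347 to 835 with a median of 446. The averaged difference was -0.74 ± 0.18 (adjusted p = 0.00148), the smallest of the 4 in size, and it was larger without the 5 libraries (-0.86 ± 0.15) and with the covariate (-1.06 ± 0.17), unlike that of the other 3. The muscle isoform Cpt1b did not pass the filter on low counts, with at most 46.95 normalized counts in any library.

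All 10 members of mitochondrial beta-oxidation were lower in PyMT over all weeks, with averaged differences from -2.06 to -0.90. Decr1, the 2,4-dienoyl-CoA reductase needed for unsaturated fatty acids, gave the largest. At week 6 it had 2071, 1344 and 918 normalized counts in FVB and 483, 931 and 315 in PyMT. At week 8 it had 3208, 1228 and 811 against 479.9, 183 and 299, at week 10 it had 1266, 1471 and 2671 against 169.9, 349 and 387, and at week 12 it had 2284, 1613 and 1074 against 596, 388 and 332. The groups were separate at weeks 8, 10 and 12, and at week 6 PyMT replicate 2 exceeded FVB replicate 3. The differences at these 3 weeks were -2.43 ± 0.57, -2.52 ± 0.39 and -1.87 ± 0.32, all DEG calls, and the averaged difference was -2.06 ± 0.26 (adjusted p = 1.1e-06). It was -1.70 ± 0.20 without the 5 libraries and -1.27 ± 0.17 with the covariate.

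The acyl-CoA dehydrogenases, which start each round of beta-oxidation, were ordered by size of the averaged difference as the medium (Acadm), long (Acadl), very long (Acadvl) and short (Acads) chain enzyme. Acadm ran from 1462 to 7700 normalized counts in FVB (median 2578) and from 571 to 2618 in PyMT (median 830.5). Its 4 highest FVB libraries, the brown-rich ones at 4613 to 7700, stood above the other 8 at 1462 to 2737, and PyMT week 6 replicate 2 at 2618 stood above the other 11 PyMT libraries at 571 to 1288, which in turn lay below all FVB libraries. The averaged difference was -1.81 ± 0.29 (adjusted p = 2.16e-05), -1.30 ± 0.13 without the 5 libraries and -0.89 ± 0.18 (adjusted p = 0.00048) with the covariate. Acadl gave -1.58 ± 0.29 and was still called with the covariate (-0.59 ± 0.20, adjusted p = 0.0243), and Acadvl gave -1.20 ± 0.31 and was not (-0.12 ± 0.21, adjusted p = 0.701). Acadvl overlaps Dvl2 on the opposite strand, which had 6554 counts against 43010 for Acadvl. Acads gave -0.90 ± 0.16 (adjusted p = 7.43e-05), the smallest of the 10, with FVB levels of 488.5 to 1500.0 and PyMT levels of 337 to 628, and -0.55 ± 0.17 with the covariate. The differences between these 4 genes were not tested, and the SEs of neighbors in the order overlap.

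The later steps of beta-oxidation were lower as well. Hadh, the 3-hydroxyacyl-CoA dehydrogenase of shorter chains, ran from 1219 to 4863 normalized counts in FVB (median 1744) and from 653 to 1539 in PyMT (median 772). It was a DEG at weeks 10 (-1.72 ± 0.27) and 12 (-1.18 ± 0.30), and its averaged difference was -1.36 ± 0.23 (adjusted p = 4.28e-05), -0.94 ± 0.09 without the 5 libraries and -0.70 ± 0.18 with the covariate. Hadhb, the thiolase subunit of the trifunctional protein, ran from 619 to 4682 in FVB (median 1228) and from 373 to 1200.4 in PyMT (median 492), and gave -1.56 ± 0.31 (adjusted p = 0.000301). Its partner Hadha, with the hydratase and long-chain dehydrogenase activities, gave -0.96 ± 0.26 (adjusted p = 0.00358) and was a DEG at no week. Echs1, the short-chain enoyl-CoA hydratase, ran from 671 to 3531 in FVB (median 1192) and from 512 to 1014 in PyMT (median 656), and gave -1.15 ± 0.23 (adjusted p = 0.000255). Acaa2, the mitochondrial thiolase, gave -1.17 ± 0.32 (adjusted p = 0.00383). With the covariate Hadhb and Echs1 were at -0.47 ± 0.21 and -0.46 ± 0.19 (adjusted p = 0.08 and 0.0658), Hadha and Acaa2 at -0.10 ± 0.18 and -0.12 ± 0.22, and none of the 4 was called.

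Electrons from the acyl-CoA dehydrogenases pass to the electron transfer flavoprotein and from it to the respiratory chain, and its 3 genes were DEGs at week 10. Etfb ran from 508 to 2177 normalized counts in FVB (median 725) and from 191 to 762 in PyMT (median 357), and gave -1.35 ± 0.25 (adjusted p = 0.000121) over all weeks. Etfa, the other subunit, gave -0.99 ± 0.19 and Etfdh, the oxidoreductase that passes the electrons on to ubiquinone, -1.09 ± 0.23. Etfb stayed called with the covariate (-0.61 ± 0.19, adjusted p = 0.0141), Etfa was at the border (-0.48 ± 0.20, adjusted p = 0.0565) and Etfdh was not called (adjusted p = 0.131).

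Both peroxisomal members were lower over all weeks. Acox3, an acyl-CoA oxidase that also acts on branched chains, ran from 493 to 708 normalized counts in FVB (median 605) and from 208 to 456 in PyMT (median 403), with no overlap. Its averaged difference of -0.66 ± 0.11 (adjusted p = 2.28e-05) was nearly the same without the 5 libraries (-0.59 ± 0.13) and with the covariate (-0.76 ± 0.13). Ehhadh, the peroxisomal bifunctional enzyme, ran from 249.9 to 845 in FVB (median 330.3) and from 47.8 to 476 in PyMT (median 229.8), and gave -0.77 ± 0.22 (adjusted p = 0.00587), but -0.45 ± 0.20 (adjusted p = 0.0734) without the 5 libraries. Its lowest value, 47.8 in PyMT week 8 replicate 2, came from the library with 2.87% of the genes of 10 to 30 CPM at 0.

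**Figure D4:**
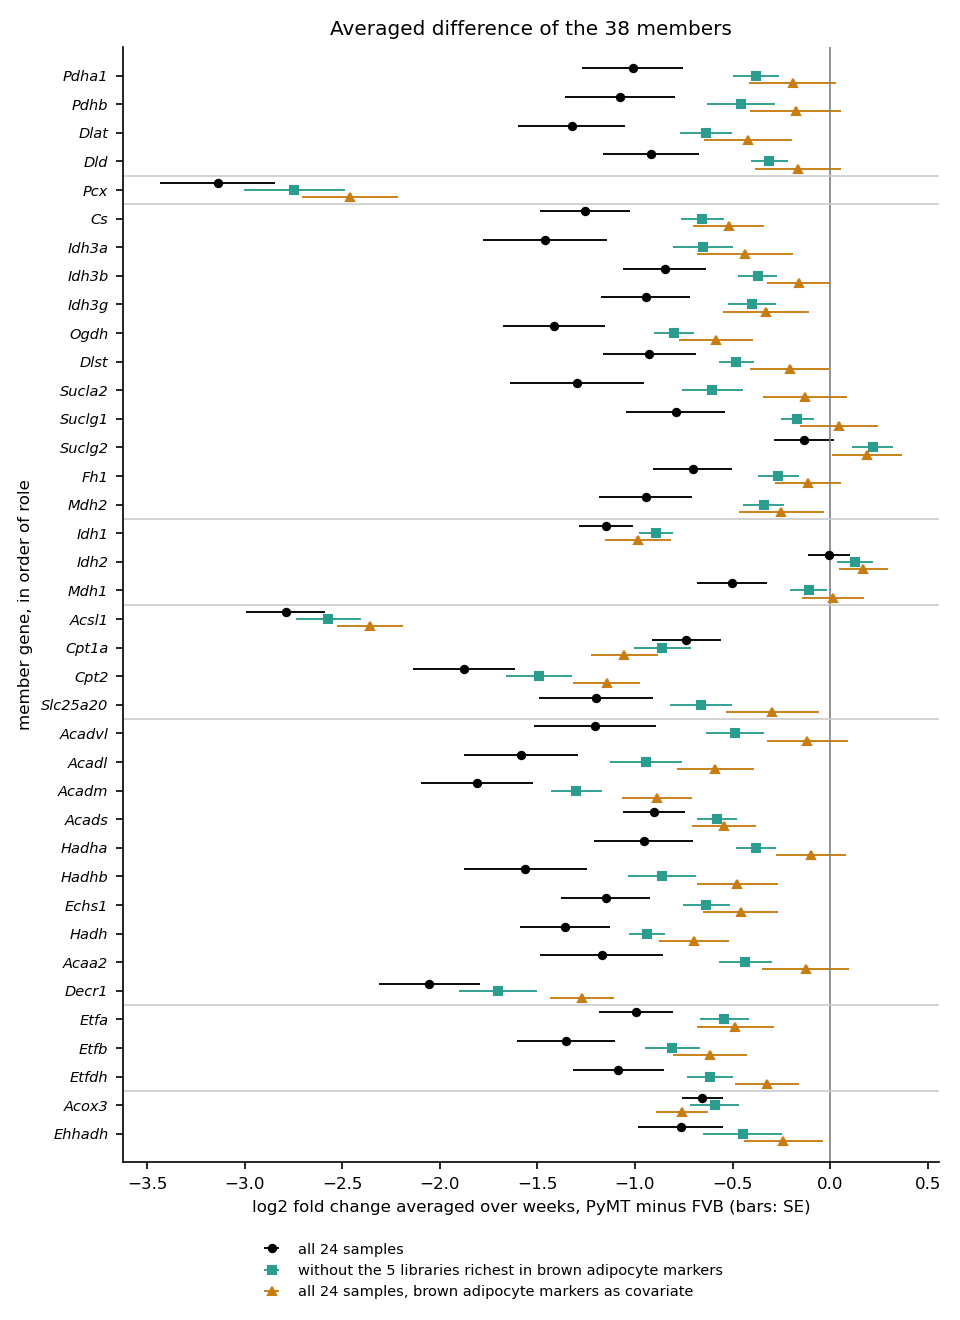
For each of the 38 members, in order of role, the log2 fold change averaged over weeks (PyMT minus FVB) with its SE in 3 fits: all 24 samples (black), without the 5 libraries richest in brown adipocyte markers (green) and with these markers as a covariate (orange). With the covariate Pcx is at -2.46, Acsl1 at -2.36, Decr1 at -1.27 and Cpt2 at -1.15, and the values of most TCA cycle enzymes move toward 0, with medians over all members of -1.12, -0.60 and -0.37.

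Promoters of members were searched for 5 motifs on both strands. The windows, from RefSeq on GRCm38.p6, a later build than the mm9 of the counts, run from 250 bases before to 50 after a start site, and 35 of the 38 members had one. The nuclear receptor half-site AGGTCA was found in 9 of the 35 members (25.7%) and in 18.1% of all 27025 genes with a window. The ETS element CCGGAAGT, bound by GABP among others, was found in 3 members (8.57%; 4.31% of all genes), and the NRF1 element in Etfdh alone (2.86%; 1.07%). The estrogen-related receptor element TCAAGGTCA (0.466% of all genes) and the PPAR element of the DR1 type (0.048%), a direct repeat of the half-site, were in no member's window. Both of the last contain AGGTCA. Shown, 5′ to 3′ on the gene's strand, are the 250 bases before the start site of the 3 members that were DEGs in at least 2 weeks and hold one of these motifs there, in capitals. Acadm lies at chr3:153944644-153944893, Cpt2 at chr4:107923590-107923839 and Echs1 at chr7:140116422-140116671, all on the minus strand.
Acadm: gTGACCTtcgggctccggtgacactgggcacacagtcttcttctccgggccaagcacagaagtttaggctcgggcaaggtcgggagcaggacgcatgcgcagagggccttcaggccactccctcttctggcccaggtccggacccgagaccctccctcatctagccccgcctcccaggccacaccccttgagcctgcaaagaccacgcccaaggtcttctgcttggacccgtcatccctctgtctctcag
Cpt2: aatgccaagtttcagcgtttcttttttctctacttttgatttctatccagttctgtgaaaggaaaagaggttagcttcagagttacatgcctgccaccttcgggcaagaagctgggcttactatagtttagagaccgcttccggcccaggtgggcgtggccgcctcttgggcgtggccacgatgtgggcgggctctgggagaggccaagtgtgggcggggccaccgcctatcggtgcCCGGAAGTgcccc
Echs1: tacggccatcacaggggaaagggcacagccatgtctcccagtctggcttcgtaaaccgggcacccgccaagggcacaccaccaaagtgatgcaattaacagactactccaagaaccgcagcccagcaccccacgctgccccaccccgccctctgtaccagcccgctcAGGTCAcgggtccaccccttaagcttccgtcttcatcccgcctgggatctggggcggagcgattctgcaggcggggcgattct
The half-site starts 249 bases before the start site in Acadm, on the opposite strand, and 83 bases before it in Echs1, and the ETS element 13 bases before it in Cpt2. A match is a description of the letters, and binding was not measured.

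Along the stages, no change of the PyMT against FVB difference passed adjustment. None of the 38 members had an adjusted p under 0.05 for the interaction of genotype and week, and none of the 14918 genes tested did (edgeR quasi-likelihood F test), although 494 genes (3.31%) had an unadjusted p under 0.05. Among the members only Ehhadh did (unadjusted p = 0.043 by edgeR's test, adjusted p = 1). Its weekly differences were 0.15 ± 0.31, -1.78 ± 0.61, -0.74 ± 0.27 and -0.64 ± 0.28. Within PyMT mice, 36 members had a log2 difference of week 12 minus week 6 below 0, with a median of -0.56, and within FVB mice 20 had, with a median of -0.04. Of the 14918 genes tested, 7707 were below 0 in PyMT (median -0.018) and 7646 in FVB (median -0.012). Without PyMT week 6 replicate 2, the brown-rich PyMT library, 31 members were below 0 in PyMT with a median of -0.23. Without all 5 brown-rich libraries 29 were, with a median of -0.20. Neither contrast gave a call for any gene after adjustment, with 1004 genes (6.73%) at an unadjusted p under 0.05 in PyMT and 625 (4.19%) in FVB. The largest difference within PyMT was that of Slc25a20 (-1.40 ± 0.58, unadjusted p = 0.0265, adjusted p = 0.632), whose week 6 values were 295, 926 and 342 normalized counts and whose week 12 values were 232, 136 and 218. The value of 926 belonged to the brown-rich PyMT library of week 6. Acsl1 gave -0.80 ± 0.38 (unadjusted p = 0.0468, adjusted p = 0.73).

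Of 66 other genes of these pathways, their regulators and linked enzymes, 64 passed the filter. Over all weeks 42 were lower in PyMT (27.4% of all genes tested) and 7 higher (23.6% of all genes tested), with a median of -0.98. Without the 5 brown-rich libraries 36 were lower and 9 higher, and with the covariate 24 and 9. Of all genes tested, 24.0% and 20.9% were called lower in these fits, and the shares called higher are not given here. The 4 subunits of succinate dehydrogenase, which oxidizes succinate in the cycle and passes its electrons to the respiratory chain, were all lower, with averaged differences from -1.12 ± 0.24 for Sdhb to -0.61 ± 0.17 for Sdhd. With the covariate none of the 4 was called (adjusted p from 0.168 to 0.71), and Sdhd was not called without the 5 libraries either (-0.24 ± 0.11, adjusted p = 0.0755). Of the kinases that switch off pyruvate dehydrogenase, Pdk4, the one induced by fasting and fatty acids, fell by 3.52 ± 0.59 (SE) on the log2 scale, from a median of 1589 to 210.4 normalized counts. Its difference was -2.65 ± 0.47 without the 5 libraries and -1.97 ± 0.32 with the covariate, called in both. Pdk2 gave -1.46 ± 0.28 and Pdk1 -0.91 ± 0.21, both called but not with the covariate (adjusted p = 0.0639 and 0.281), and Pdk3 gave 0.58 ± 0.26 (adjusted p = 0.0691).

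Among these genes, those with the smallest adjusted p included Acsl4, Abcd2, Acox2, Glud1, Pparg, Acad11, Scp2, Crat, Pck1, Slc25a10 and Slc25a1, and of these all but Acsl4 and Acox2 were lower. Abcd2, a peroxisomal importer of very long chain acyl-CoA found in adipose tissue, was at 1572 to 5287 normalized counts in FVB and 68.4 to 643.5 in PyMT (-3.81 ± 0.23). Pck1, the cytosolic phosphoenolpyruvate carboxykinase, which serves glycerol synthesis in fat, gave -4.00 ± 0.50, and Pparg, the nuclear receptor that directs adipocyte differentiation, gave -3.27 ± 0.34, from a median of 1298 to 124.6 normalized counts. Crat, the carnitine acetyltransferase, gave -2.26 ± 0.28, Acad11, a dehydrogenase of the same family as Acadm, -1.79 ± 0.20, and Scp2, a peroxisomal thiolase and sterol carrier, -1.15 ± 0.14. The mitochondrial citrate carrier Slc25a1 gave -2.83 ± 0.36, the dicarboxylate carrier Slc25a10 -1.10 ± 0.14, and Glud1, glutamate dehydrogenase, -0.99 ± 0.09. The regulators Ppara, the receptor that induces fatty acid oxidation, and Ppargc1a, a coactivator of mitochondrial genes, gave -3.55 ± 0.59 and -1.92 ± 0.52, and with the covariate they were at -2.06 ± 0.37 (called) and -0.59 ± 0.64 (adjusted p = 0.505). Ppargc1a was not called without the 5 libraries either (adjusted p = 0.121). The other genes of this paragraph stayed called in both fits. With the covariate Crat was at -1.36 ± 0.18 and Slc25a1 at -1.86 ± 0.27.

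Among the genes called higher were relatives of members. Acsl4, an acyl-CoA synthetase that prefers arachidonate, was at 371 to 793.5 normalized counts in FVB (median 501) and 2449.7 to 8451 in PyMT (median 5120.0), a difference of 3.28 ± 0.17 (adjusted p = 8.31e-12), and it was a DEG at all 4 weeks with 3.43, 3.10, 3.49 and 3.16. Acsl1 and Acsl4 thus moved in opposite directions in the same mice: the lowest FVB value of Acsl1, 8747, lay above the highest PyMT value, 4568, and the reverse was so for Acsl4 at 793.5 and 2449.7. Acox2, a peroxisomal oxidase of bile acid intermediates and branched chains, was at 0 in all 3 FVB mice of week 10, at 6.95 to 27.3 in the other 9 FVB mice and at 29.8 to 346 normalized counts in PyMT. It was a DEG at all 4 weeks (adjusted p = 1.57e-09 over all weeks), and no fold change is given because of the zeros. Of the other 5 called higher, which are named after their values were seen, Got2, the mitochondrial aspartate aminotransferase, gave 0.78 ± 0.19, Acad9, an assembly factor of respiratory complex I related to Acadvl, 0.70 ± 0.11, and Decr2, the peroxisomal counterpart of Decr1, 0.66 ± 0.15. Gabpa and Acaa1a gave 0.20 ± 0.08 and 0.18 ± 0.07, and neither was called without the 5 brown-rich libraries (adjusted p = 0.0657 and 0.0669).

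**Figure D5:**
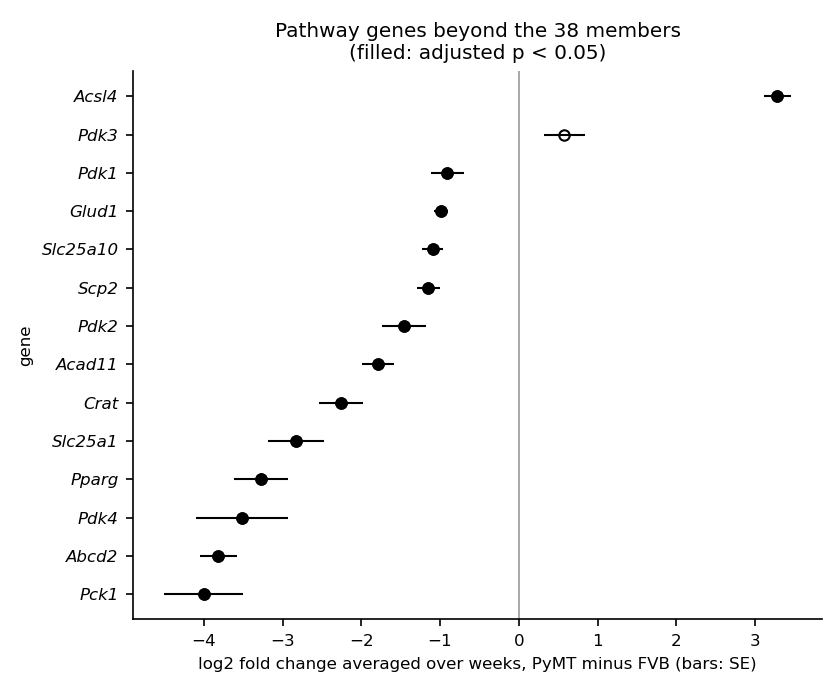
Log2 fold changes averaged over weeks (PyMT minus FVB) with SE bars for the 4 pyruvate dehydrogenase kinases and for other pathway genes among those with the smallest adjusted p, filled where the adjusted p was under 0.05 (Acox2 is left out, as it was at 0 in all FVB mice of week 10). Acsl4 stands alone on the right among the called genes at 3.28, Pdk3 at 0.58 was not called, and the others lie between -4.00 and -0.91.

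Markers of other cell types differed between the genotypes beside these results. The summed adipocyte markers were lower in all 12 PyMT mice than in any FVB mouse, the fibroblast sum was 2867 to 11450 CPM in FVB and 1280 to 2894 CPM in PyMT, and the endothelial sum was 529 to 912 CPM and 69.1 to 218 CPM. The luminal sum was higher in all PyMT mice, though Krt19, 1 of its 6 genes, had a median of 2009 normalized counts in FVB and 1240.0 in PyMT, basal epithelial sums overlapped at 108 to 575 and 99.9 to 577 CPM, macrophage sums overlapped at 176 to 542 and 171 to 468 CPM, and the 4 lymphocyte markers summed to at most 5.23 CPM in any library. The adipocyte marker sums of the genotypes did not overlap, so their part in the lower levels of the members and that of genotype cannot be told apart.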

How the data were processed

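Per the labels and the study's methods, total RNA of snap-frozen mammary tumors and normal mammary glands was depleted of ribosomal RNA and sequenced as directional libraries. The authors aligned reads to mm9 with GSNAP and deposited raw counts per Ensembl gene from HTSeq, and the annotation release and strand setting are not given in the sources used here. From these counts, genes with at least 1 CPM in at least 12 of 24 samples (14918 of 37991) were tested with edgeR 4.0.16 in R 4.3.3 by the quasi-likelihood test with TMM scaling and Benjamini-Hochberg adjustment. Each week was fitted on its 6 samples, and the averaged, interaction and within-genotype contrasts on all 24 in 8 groups. Normalized counts used the size factors of DESeq2 1.42.0. Library totals had a median of 8280269.5 counts. No pair of replicates agreed within sampling noise (chi-square per gene 19.3 to 244 over 24 pairs). The scripts were tested on simulated data.

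The members, the other gene lists and the markers were chosen with earlier results of these data known. Some members also belong to lists that the study chose on these samples, so their direction is not independent evidence. Members were named by role: those that were DEGs in at least 2 weeks and the extremes of each role. Of the other genes, the pyruvate dehydrogenase kinases and the 12 with the smallest adjusted p were named by rule. Ppara, Ppargc1a, the succinate dehydrogenase subunits and the remaining genes called higher were added after their values were seen. Some results that these rules name are not reported here. Alternatives covered scaling, filter, tool (DESeq2, limma 3.58.1), fold threshold, replicate block, marker covariates and leaving out libraries.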

Additional observations from a re-analysis of the deposited data

How the results depend on the processing

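Of the weekly DEG counts of members, that of week 6 (3) was 5 with no filter on low counts, 6 with DESeq2, 5 with limma voom and 0 when tested against a 2-fold change. It was 6 without both brown-rich libraries of that week, FVB replicate 1 and PyMT replicate 2. That of week 8 (4) was 19 with no filter, 13 with DESeq2, 0 with the fold test and 13 in the fit of all 24 samples. That of week 10 (21) was 5 with the fold test. That of week 12 (21) was 10 with library size only, 3 with the fold test, 8 without the brown-rich library and 9 in the fit of all 24 samples. The averaged count (36) was 14 with the brown adipocyte covariate and 15 with both covariates. The cause was not tested. Shares of all genes called in the fits behind the weekly counts of this section are not given here. Leaving out 1 library gave 2 to 6 at week 6, 0 to 4 at week 8, 7 to 27 at week 10, 8 to 27 at week 12, 35 to 36 for the average, 47 to 49 for the other pathway genes and 0 for the 3 contrasts over time.

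The sign turned for Suclg2 with library size only (0.204), voom (0.085), the muscle covariate (0.01), the brown adipocyte covariate (0.187), both (0.179) and without the 5 libraries (0.218). It turned for Idh2 with library size only (0.308), no filter (0.023), voom (0.018), the muscle covariate (0.081), the brown adipocyte covariate (0.17), both (0.17), without the 5 libraries (0.126), with the replicate block (0.01) and in 15 of the fits without 1 library (0.001 to 0.075, and -0.05 to 0.075 over all of them). Suclg1 (0.046 and 0.044) and Mdh1 (0.015 and 0.01) turned with the brown adipocyte covariate and with both. None of these passed the test except Idh2 with library size only.

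With the replicate number as a block the counts were 3, 6, 19 and 18 at weeks 6 to 12, 36 for the average and 47 for the other genes. Same-numbered samples correlated by -0.024 to 0.177, over 0.1 in 4 of 12 pairs, and different-numbered samples of a week by -0.132 to 0.091. The main fits did not take the numbers to pair the mice, and whether same-numbered samples shared a component was not tested. No block was fitted for the contrasts over time. For the interaction DESeq2 was run as a likelihood ratio test, since its Wald test takes 1 term.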
